A study of Mus musculus with 12 samples.

Results

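The 8 genes described here encode subunits of voltage-gated calcium channels, the membrane pores that open when a cell depolarises and let calcium in. They were chosen by name, with earlier results of these data known, and are 8 of 78334 genes in the count table. Cacna1c, Cacna1d, Cacna1g and Cacna1h encode pores, and Cacnb2, Cacnb3, Cacna2d1 and Cacng6 encode accessory subunits. RNA-seq of poly(A) RNA covered left ventricles from 3 groups of mice, with 4 biological replicates each. UNX/DOCA ITF2357 mice had the UNX/DOCA operation, understood here as removal of a kidney with deoxycorticosterone acetate, and from week 4 after the operation ate chow containing ITF2357 for another 4 weeks. ITF2357, also named givinostat, inhibits histone deacetylases, the enzymes that take acetyl groups off histones. UNX/DOCA vehicle mice had the same operation and ate normal chow, and Sham vehicle mice had a sham operation and normal chow. No Sham group given ITF2357 is among the samples, so the drug is seen only on the background of the operation. The labels used here give no strain, sex, age or dose in the chow.

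In a ventricular myocyte the action potential opens L-type channels in the transverse tubules, and the calcium that enters makes the sarcoplasmic reticulum release more, which starts contraction. A high-voltage-activated channel is a complex of a pore (alpha1) subunit with a cytoplasmic beta subunit and an extracellular alpha2delta subunit, which govern how many channels reach the membrane and how they gate. T-type pores open at more negative voltages, work without these partners, and are known from nodal cells, the fetal ventricle and hypertrophied myocardium.

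The libraries held between 23.4 and 34.9 M counts, so that 1 CPM (counts per M reads, scaled by the trimmed mean of M-values) stood for about 28.3 reads. Genes were tested with edgeR's quasi-likelihood test over all 12 libraries, and a gene passed at a Benjamini-Hochberg adjusted p under 0.05 over the 16981 genes tested. All 6 cardiomyocyte markers on the list used were measured, and their summed level was 41926 to 45853 CPM in UNX/DOCA ITF2357, 37865 to 45585 in UNX/DOCA vehicle and 40001 to 50938 in Sham vehicle libraries. Myh6 was the largest part (18026 to 27691 CPM over the 12 libraries). Of the 6, 5 lay below 0 between UNX/DOCA vehicle and Sham vehicle (median log2 fold change -0.08). Between UNX/DOCA ITF2357 and UNX/DOCA vehicle 2 did (median 0.09), between UNX/DOCA ITF2357 and Sham vehicle 4 (-0.10), and 0 passed. Of the 5 atrial markers, Myl7 was at most 0.633 CPM, Bmp10 0.135, Sln 2.49 and Myl4 2.45 in any library, while Nppa, which the stressed ventricle also makes, ran from 77.8 to 829 CPM. In tissue RNA, fewer cells of a type and less RNA per cell cannot be told apart. UNX/DOCA vehicle replicate 3 stood apart by its immune markers, with a summed neutrophil marker level of 470 CPM, against 3.78 to 151 in the other UNX/DOCA vehicle libraries and 13.0 to 41.9 in Sham vehicle libraries.

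None of the 7 channel genes with enough reads passed the test in any of the 3 comparisons. Between UNX/DOCA vehicle and Sham vehicle, 0 of 7 passed, where 0% of all genes tested did. Between UNX/DOCA ITF2357 and UNX/DOCA vehicle, 0 of 7 passed, where 0.901% of all genes did. Between UNX/DOCA ITF2357 and Sham vehicle, 0 of 7 passed, where 1.75% of all genes did. Below that threshold the genes did not all lie together. Cacnb2 and Cacna1c had lower values in every UNX/DOCA vehicle library than in any Sham vehicle library, and Cacna1d had higher values in every UNX/DOCA ITF2357 library than in the 8 others. Of all genes tested, 4.36% were separated like Cacnb2 and Cacna1c, and 2.35% were placed like Cacna1d.

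Levels of different genes were compared per kilobase of exon (RPKM, from the CPM and the union of exons in the GRCm38 annotation). Cacna2d1 and Cacna1c were the most abundant, with means over 12 libraries of 15.1 RPKM (8.67 to 16.8) for Cacna2d1 and 13.1 RPKM (10.6 to 14.9) for Cacna1c. Cacnb2 followed at 4.77 RPKM (3.6 to 6.04), Cacna1g at 2.79 (1.65 to 6.12) and Cacnb3 at 0.868 (0.523 to 1.15). Cacna1d at 0.109 RPKM (0.0802 to 0.161), Cacna1h at 0.0916 (0.0606 to 0.146) and Cacng6 at 0.0380 (0 to 0.0829) were near the bottom of the scale. The order was the same in all 12 libraries for Cacna1c above Cacnb2, Cacna1g above Cacnb3 and Cacnb3 above Cacna1d. Cacna2d1 lay above Cacna1c in 11 of 12 libraries and Cacnb2 above Cacna1g in 11. The order of Cacna2d1 and Cacna1c rests on the exon unions used, 12416 and 21191 bases. In CPM the mean was higher for Cacna1c, 277 against 188 for Cacna2d1. The lowest neighbours overlapped most, with Cacna1d above Cacna1h in 9 libraries and Cacna1h above Cacng6 in 10.

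**Figure D1:**
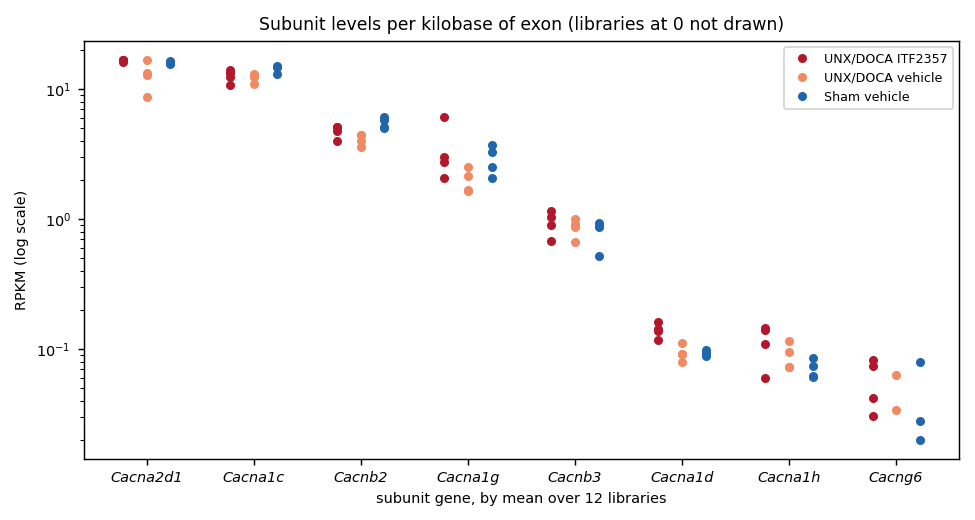
Each point is 1 library, its level in RPKM on a log axis, coloured by group, with genes ordered by their mean over 12 libraries. Cacna2d1 and Cacna1c lie near 15.1 and 13.1 RPKM on average, while Cacna1d, Cacna1h and Cacng6 lie below 0.2 RPKM in every library.

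Cacna1c (ENSMUSG00000051331, chromosome 6) encodes the pore of Cav1.2, the main L-type channel of the ventricle and of vascular smooth muscle. Its level was 297, 283, 263 and 226 CPM in UNX/DOCA ITF2357 libraries. In UNX/DOCA vehicle libraries it was 229.9, 262, 274 and 274 CPM. In Sham vehicle libraries it was 315, 275, 315 and 315 CPM. The highest UNX/DOCA vehicle library lay just under the lowest Sham vehicle library, and the UNX/DOCA ITF2357 libraries covered all the UNX/DOCA vehicle values but only the lowest Sham vehicle value. The mean was 259.7 ± 20.7 CPM in UNX/DOCA vehicle and 305.0 ± 20.1 CPM in Sham vehicle libraries (SD, n = 4 each), a log2 fold change of -0.23 with a 95% interval of -0.43 to -0.04. Its edgeR p was 0.0237 before and 0.247 after adjustment. UNX/DOCA ITF2357 libraries averaged 267 ± 31.1 CPM (SD, n = 4), 0.04 ± 0.09 (SE) above UNX/DOCA vehicle on the log2 scale (edgeR adjusted p = 0.852). Against Sham vehicle the log2 fold change of UNX/DOCA ITF2357 was -0.19 (edgeR adjusted p = 0.258).

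Smooth muscle and pericyte markers, whose cells also use Cav1.2, summed to 1168 to 1246 CPM in UNX/DOCA ITF2357, 1237 to 1303 in UNX/DOCA vehicle and 1292 to 1501 in Sham vehicle libraries. The sums rest mostly on the pericyte genes Rgs5 (557 to 695 CPM over the 12 libraries) and Abcc9 (241 to 462 CPM). Of the 6 markers of this list that were tested, 3 lay above and 3 below 0 between UNX/DOCA vehicle and Sham vehicle (median log2 fold change 0.04) and likewise between UNX/DOCA ITF2357 and Sham vehicle (0.04), and 0 passed edgeR's test. Their part in the Cacna1c values was not tested. Among 8156 genes of at least 10 CPM, those whose level followed Cacna1c most closely over the 12 libraries were Sptb (beta spectrin), Zmynd8 and Acacb (acetyl-CoA carboxylase beta). Their root mean square difference from Cacna1c in centred log2 CPM was 0.0802, 0.0807 and 0.0833, where the median of eligible genes was 0.222. Of the other channel genes Cacnb2 was nearest to Cacna1c at 0.227, followed by Cacna2d1 at 0.283, Cacna1d at 0.323, Cacnb3 at 0.336, Cacna1g at 0.453 and Cacna1h at 0.486. None of them was thus closer to Cacna1c than the median of genes at 10 CPM or more, though Cacnb2 was almost at it. Cacna1d, Cacna1h and Cacnb3 averaged 1.38, 0.894 and 3.48 CPM. They lie under that cut, and counting error adds more to their differences. The measure also grows with a gene's own spread, and the coefficient of variation was 43.6% for Cacna1g and 33.1% for Cacna1h.

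Cacna1d (ENSMUSG00000015968, chromosome 14) encodes the pore of Cav1.3, an L-type channel best known from the sinoatrial node and atria. RefSeq places 2 starts of this gene in its GRCm38.p6 table, and both windows are shown because Cacna1d is the member that set the drug-treated libraries apart. Each window is 300 bases, 250 before the start and 50 after it, read along the gene's strand. Capitals mark 3 motifs searched on both strands: TATAAA, the core of a TATA box, GGGCGG, a GC box, and AGAACA, the repeated unit of the palindrome that corticoid receptors bind. These are in 13.6%, 35.7% and 19% of the 32851 promoter windows of the table, in the order given. The counts are per gene and do not tell which start was used.
Cacna1d start 1, chr14:30491107-30491406, minus strand: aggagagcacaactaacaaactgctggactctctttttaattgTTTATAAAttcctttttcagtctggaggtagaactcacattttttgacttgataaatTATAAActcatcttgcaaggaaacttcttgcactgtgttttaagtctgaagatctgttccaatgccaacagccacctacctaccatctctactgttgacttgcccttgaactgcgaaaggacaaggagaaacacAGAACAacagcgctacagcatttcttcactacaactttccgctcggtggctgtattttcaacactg
Cacna1d start 2, chr14:30353437-30353736, minus strand: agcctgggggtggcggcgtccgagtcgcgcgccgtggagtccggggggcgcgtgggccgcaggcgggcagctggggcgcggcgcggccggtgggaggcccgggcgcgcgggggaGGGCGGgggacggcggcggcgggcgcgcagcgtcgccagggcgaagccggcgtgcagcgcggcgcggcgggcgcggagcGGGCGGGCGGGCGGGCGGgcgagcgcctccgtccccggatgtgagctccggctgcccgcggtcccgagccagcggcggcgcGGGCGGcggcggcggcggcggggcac
The first window was 40.3% G or C and held 3 TATA box matches, some overlapping, and 1 corticoid motif match. The second was 87.3% G or C and held 6 GC box matches, several of them overlapping. The median of all windows was 52.7% G or C.

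Cacna1d had 49, 57, 62 and 36 reads in UNX/DOCA ITF2357 libraries, or 1.81, 1.73, 2.03 and 1.49 CPM. It had 30, 36, 28 and 39 reads in UNX/DOCA vehicle libraries, or 1.01, 1.16, 1.16 and 1.40 CPM. Sham vehicle libraries had 33, 40, 30 and 30 reads, or 1.25, 1.12, 1.19 and 1.20 CPM. The lowest of the 4 UNX/DOCA ITF2357 libraries lay above the highest of the other 8, whose groups overlapped each other. Over all genes tested, 399 (2.35%) had all 4 UNX/DOCA ITF2357 libraries above all 8 others.

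The mean of Cacna1d was 1.77 ± 0.224 CPM in UNX/DOCA ITF2357, 1.19 ± 0.161 CPM in UNX/DOCA vehicle and 1.19 ± 0.0565 CPM in Sham vehicle libraries (SD, n = 4 each). UNX/DOCA ITF2357 was higher than UNX/DOCA vehicle by 0.58 on the log2 scale, with a 95% interval of 0.21 to 0.94, an edgeR p of 0.00443 and an adjusted p of 0.108. It was higher than Sham vehicle by 0.57, with a 95% interval of 0.21 to 0.94, an edgeR p of 0.00469 and an adjusted p of 0.0905. Between UNX/DOCA vehicle and Sham vehicle the log2 fold change was -0.0046, with a 95% interval of -0.38 to 0.37 (edgeR adjusted p = 0.999). Counting error alone at these depths is 14.0% of the mean in UNX/DOCA ITF2357 and 17.3% in each other group. The observed coefficient of variation of Cacna1d was below this each time, at 12.7% (UNX/DOCA ITF2357), 13.6% (UNX/DOCA vehicle) and 4.74% (Sham vehicle). Replicates thus lay closer together than counting error alone would give. The lack of overlap rests partly on this close spacing, which was not tested. With limma-voom and sample weights the comparison of UNX/DOCA ITF2357 with Sham vehicle passed, at 0.61 and an adjusted p of 0.0288. In that fit 1506 of 16981 genes passed in this comparison, against 298 in the main fit. Nodal and conduction markers summed to 37.1 to 56.3 CPM in UNX/DOCA ITF2357, 34.4 to 49.0 in UNX/DOCA vehicle and 40.8 to 65.2 in Sham vehicle libraries, and Isl1 among them was at 0 in 11 of 12 libraries.

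**Figure D2:**
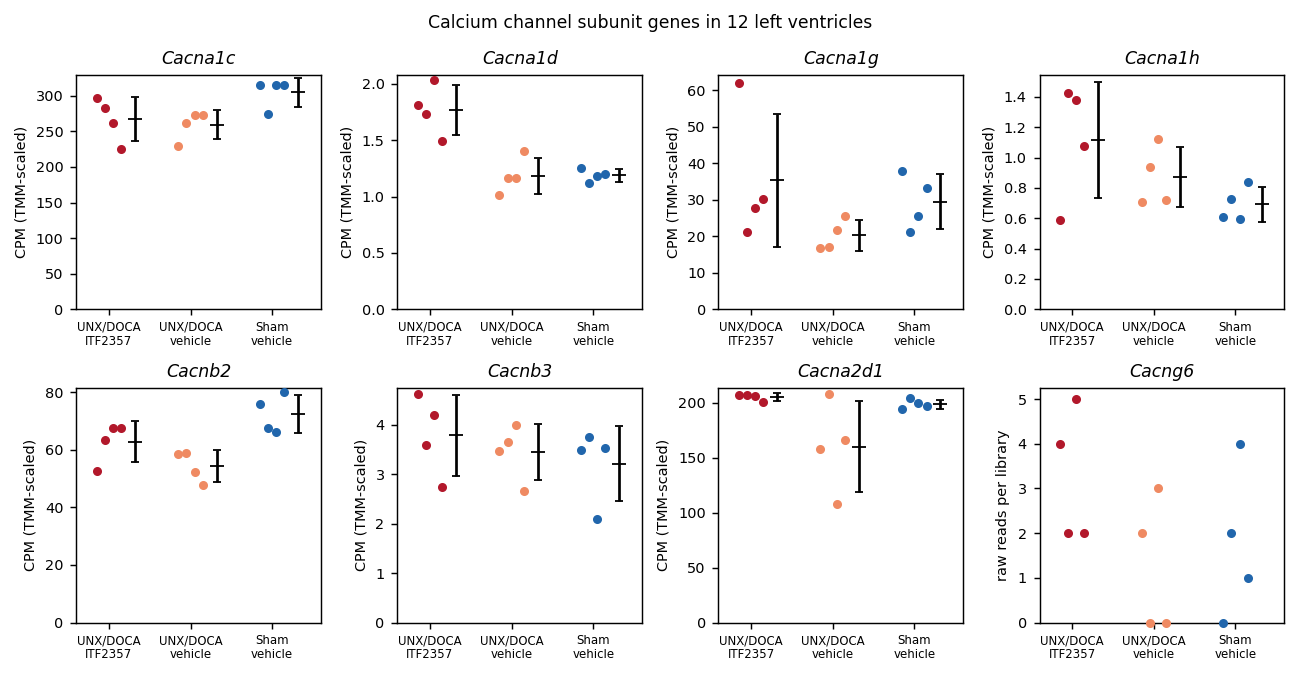
Points are single libraries in replicate order within each group, in CPM, or in raw reads for Cacng6, and bars, not drawn for Cacng6, are the mean and SD of 4 libraries. Cacna1d lies highest in the 4 UNX/DOCA ITF2357 libraries (1.49 to 2.03 CPM), and Cacnb2 and Cacna1c lie lower in UNX/DOCA vehicle than in Sham vehicle libraries.

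Cacna1g (ENSMUSG00000020866, chromosome 11) encodes the T-type pore Cav3.1 and was the more abundant T-type gene in every library. Its level was 62.0, 21.2, 27.7 and 30.3 CPM in UNX/DOCA ITF2357 libraries. In UNX/DOCA vehicle libraries it was 16.7, 17, 21.8 and 25.6 CPM, and in Sham vehicle libraries 37.9, 21.1, 25.5 and 33.2 CPM. All 3 groups overlapped, and UNX/DOCA ITF2357 replicate 1 stood alone at the top. The level of Cacna1g in UNX/DOCA ITF2357 was higher than in UNX/DOCA vehicle by 0.80 ± 0.30 (SE) on the log2 scale with an edgeR p of 0.0219 and an adjusted p of 0.192, and by 0.38 without that replicate. Against Sham vehicle the UNX/DOCA ITF2357 value was 0.26 with it and -0.16 without it (edgeR adjusted p = 0.667 and 0.716). UNX/DOCA vehicle was lower than Sham vehicle by a log2 fold change of -0.54 ± 0.30 (SE, edgeR adjusted p = 0.411).

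Cacna1h (ENSMUSG00000024112, chromosome 17) encodes Cav3.2, the T-type pore described in mouse hypertrophied ventricle. Its level was 0.592, 1.43, 1.38 and 1.08 CPM in UNX/DOCA ITF2357 libraries, 0.709, 0.937, 1.12 and 0.719 CPM in UNX/DOCA vehicle libraries and 0.608, 0.726, 0.593 and 0.841 CPM in Sham vehicle libraries. A single UNX/DOCA ITF2357 library, replicate 1, lay at the Sham vehicle level, the same library in which Cacna1g was highest. The counts are few, 15 to 47 reads per library. Against Sham vehicle, the UNX/DOCA ITF2357 level of Cacna1h was higher by 0.70 ± 0.28 (SE) on the log2 scale, with an edgeR p of 0.0290 and an adjusted p of 0.199. UNX/DOCA ITF2357 was higher than UNX/DOCA vehicle by 0.37 (edgeR adjusted p = 0.504), and UNX/DOCA vehicle was higher than Sham vehicle by 0.32 (edgeR adjusted p = 0.617). With 1 library left out, the log2 fold change ran from 0.23 (without UNX/DOCA ITF2357 replicate 2) to 0.58 (without UNX/DOCA ITF2357 replicate 1) between UNX/DOCA ITF2357 and UNX/DOCA vehicle. Between UNX/DOCA vehicle and Sham vehicle it was lowest, at 0.19, without UNX/DOCA vehicle replicate 3.

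Cacnb2 (ENSMUSG00000057914, chromosome 2) encodes the main cardiac beta subunit, which carries the L-type pore to the membrane and is the site where RGK GTPases bind. Its 2 RefSeq starts lie far apart and are shown because Cacnb2 had the smallest p of the members between the operated and sham groups on normal chow, with motifs in capitals as for Cacna1d.
Cacnb2 start 1, chr2:14604056-14604355, plus strand: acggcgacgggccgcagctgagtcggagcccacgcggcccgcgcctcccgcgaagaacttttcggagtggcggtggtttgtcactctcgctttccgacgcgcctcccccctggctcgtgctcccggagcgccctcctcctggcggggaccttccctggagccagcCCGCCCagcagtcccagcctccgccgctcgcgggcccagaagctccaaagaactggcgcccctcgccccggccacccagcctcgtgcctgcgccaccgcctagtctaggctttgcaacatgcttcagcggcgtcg
Cacnb2 start 2, chr2:14823842-14824141, plus strand: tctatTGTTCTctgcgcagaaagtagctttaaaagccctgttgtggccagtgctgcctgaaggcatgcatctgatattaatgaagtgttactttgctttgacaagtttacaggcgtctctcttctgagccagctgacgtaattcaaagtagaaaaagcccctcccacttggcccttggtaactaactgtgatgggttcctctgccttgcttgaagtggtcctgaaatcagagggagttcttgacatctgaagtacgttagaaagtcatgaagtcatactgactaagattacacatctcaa
The first window was 71.7% G or C with 1 GC box match, and the second was 44% G or C with 1 corticoid motif match. A match is a run of letters and no evidence of binding. Promoter windows of 6 of the 8 members were in the RefSeq table, and those of Cacna1g and Cacna1h were not used.

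Cacnb2 was at 52.5, 63.3, 67.7 and 67.6 CPM in UNX/DOCA ITF2357 libraries. It was at 58.6, 59.0, 52.3 and 47.7 CPM in UNX/DOCA vehicle libraries. In Sham vehicle libraries it was at 75.8, 67.5, 66.1 and 79.9 CPM. UNX/DOCA vehicle and Sham vehicle libraries did not overlap, and UNX/DOCA ITF2357 libraries overlapped both. The means were 54.4 ± 5.43 CPM in UNX/DOCA vehicle and 72.3 ± 6.59 CPM in Sham vehicle libraries (SD, n = 4 each), a log2 fold change of -0.41 with a 95% interval of -0.63 to -0.19. Its edgeR p of 0.00137 became 0.117 after adjustment. UNX/DOCA ITF2357 averaged 62.8 ± 7.12 CPM (SD, n = 4), 0.21 ± 0.10 (SE) above UNX/DOCA vehicle on the log2 scale (edgeR adjusted p = 0.296), and its log2 fold change against Sham vehicle was -0.20 (edgeR adjusted p = 0.277).

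The call for Cacnb2 between UNX/DOCA vehicle and Sham vehicle turned on the tool and on the filter. It passed as lower with DESeq2 (log2 fold change -0.41, adjusted p = 0.0148), with limma-voom and sample weights (-0.46, adjusted p = 0.0347) and with edgeR on all genes without a filter on low counts (-0.43, adjusted p = 0.0226). Over all genes, 176, 197 and 85 were called lower in these fits, in the order given, and 0 in the main fit. UNX/DOCA vehicle replicates 3 and 4, in which Cacnb2 was lowest, had the highest macrophage marker sums of their group (579 and 379 CPM). Without both, the log2 fold change of Cacnb2 was -0.30 (edgeR adjusted p = 0.686) and that of Cacna1c was -0.31 (edgeR adjusted p = 0.679). Both genes kept an unadjusted edgeR p under 0.05 in that fit, which has fewer libraries. The part of macrophages in these values was not tested.

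Cacnb3 (ENSMUSG00000003352, chromosome 15) encodes a beta subunit known from smooth muscle and neurons. Its level was 4.62, 3.58, 4.20 and 2.73 CPM in UNX/DOCA ITF2357 libraries, 3.48, 3.65, 3.99 and 2.66 CPM in UNX/DOCA vehicle libraries and 3.5, 3.74, 2.10 and 3.52 CPM in Sham vehicle libraries. The groups overlapped throughout. UNX/DOCA ITF2357 was higher than UNX/DOCA vehicle by 0.14 (edgeR adjusted p = 0.772) and than Sham vehicle by 0.23 (edgeR adjusted p = 0.581) on the log2 scale. UNX/DOCA vehicle was higher than Sham vehicle by 0.09 (edgeR adjusted p = 0.861). With 1 library left out these values ran from 0.03 to 0.27, from 0.07 to 0.35 and from -0.074 to 0.19 in that order.

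Cacna2d1 (ENSMUSG00000040118, chromosome 5) encodes the main cardiac alpha2delta subunit, the protein that gabapentin binds. It was at 207, 207, 206 and 200.3 CPM in UNX/DOCA ITF2357 libraries. In UNX/DOCA vehicle libraries it was at 158, 208, 108 and 166 CPM, and in Sham vehicle libraries at 194, 204, 199 and 197 CPM. The drug-treated and sham libraries were nearly uniform, with a coefficient of variation of 1.62% in UNX/DOCA ITF2357, 25.8% in UNX/DOCA vehicle libraries and 2.07% in Sham vehicle, where counting error alone would give 1.30%, 1.48% and 1.34%. No test was made of this difference in spread. In UNX/DOCA vehicle 3 of 4 libraries lay below every other library and the remaining one, replicate 2, above them all.

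The mean of Cacna2d1 was 205 ± 3.33 CPM in UNX/DOCA ITF2357, 159.9 ± 41.3 CPM in UNX/DOCA vehicle and 199 ± 4.11 CPM in Sham vehicle libraries (SD, n = 4 each). The UNX/DOCA ITF2357 level was higher than that of UNX/DOCA vehicle by 0.36 ± 0.14 (SE) on the log2 scale, with an edgeR p of 0.0244 and an adjusted p of 0.198. Leaving out UNX/DOCA vehicle replicate 3 made this value 0.20, and leaving out replicate 2 of that group made it 0.51. The log2 fold change of UNX/DOCA vehicle against Sham vehicle was -0.31 ± 0.14 (SE), with an edgeR p of 0.0445 and an adjusted p of 0.305. UNX/DOCA ITF2357 differed from Sham vehicle by 0.05 (edgeR adjusted p = 0.894). The lowest library, UNX/DOCA vehicle replicate 3 with 108 CPM, had the highest summed macrophage markers (579 CPM, against 209 to 379 CPM in the rest of its group) and neutrophil markers (470 CPM). The part of these cells in the value was not tested. Without it the log2 fold change of UNX/DOCA vehicle against Sham vehicle was -0.17, without replicates 3 and 4 together it was -0.12, and without replicate 2, the highest library, it was -0.47.

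Cacng6 (ENSMUSG00000078815, chromosome 7) encodes a gamma subunit that in heterologous cells reduces T-type current. It had 4, 2, 5 and 2 reads in UNX/DOCA ITF2357 libraries, 2, 0, 3 and 0 reads in UNX/DOCA vehicle libraries and 0, 2, 4 and 1 reads in Sham vehicle libraries, 25 in all. These counts were under the filter and the gene was not tested. A difference between groups was not detectable at this depth.

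Read together, the 7 tested members lay as follows. They were chosen with earlier results of these data known, so the shares over all genes are given for scale and do not test the set. Between UNX/DOCA vehicle and Sham vehicle, 5 of 7 had a log2 fold change below 0 with a median of -0.23 (0.01 over all genes). The unadjusted edgeR p was under 0.05 for 3 members, Cacnb2, Cacna1c and Cacna2d1, all lower. Of all genes, 15.9% reached that level in either direction and 6.47% were lower at it. With 1 library left out the count was 1 to 3. Cacnb2 was among them in each of these 12 fits, and it was alone without UNX/DOCA vehicle replicate 1 or Sham vehicle replicate 4. Cacna2d1 was among them only without UNX/DOCA vehicle replicate 2. Groups did not overlap for 2 members, both lower, where 4.36% of all genes were separated in that direction. Between UNX/DOCA ITF2357 and UNX/DOCA vehicle, 7 of 7 lay above 0 with a median of 0.36 (-0.00 over all genes). Cacna1c among them was at 0.04, and at -0.017 without UNX/DOCA ITF2357 replicate 1 and -0.012 without UNX/DOCA vehicle replicate 1. Here 3 members, Cacna1d, Cacna1g and Cacna2d1, had an unadjusted p under 0.05 and were higher. Of all genes, 18.5% had such a p in either direction and 8.70% were higher with it. With 1 library left out, only Cacna1d stayed among them in all 12 fits. Cacna1g dropped out without UNX/DOCA ITF2357 replicate 1 or UNX/DOCA vehicle replicate 1 or 2. Cacna2d1 dropped out without UNX/DOCA ITF2357 replicate 1 or UNX/DOCA vehicle replicate 1. Cacnb2 was higher at that level in these fits. Groups were separated for 1 member, where 4.95% of all genes were higher without overlap. Without UNX/DOCA vehicle replicates 3 and 4 the unadjusted count was 2 lower in UNX/DOCA vehicle against Sham vehicle (Cacnb2 and Cacna1c) and 2 higher between UNX/DOCA ITF2357 and UNX/DOCA vehicle (Cacna1d and Cacna1g). These 2 comparisons share the UNX/DOCA vehicle libraries, so a high or low library there moves both. Between UNX/DOCA ITF2357 and Sham vehicle, 5 of 7 lay above 0 with a median of 0.23 (0.01 over all genes). In this comparison 2 members, Cacna1d and Cacna1h, had an unadjusted p under 0.05 and were higher. Of all genes, 20.1% had such a p in either direction and 10.7% were higher with it. Cacna1d kept such a p in each of the 12 fits with 1 library left out, and Cacna1h did not without UNX/DOCA ITF2357 replicate 2 or 3 or Sham vehicle replicate 1 or 3. In some of these fits Cacna1c or Cacnb2 was lower at that level. Only Cacna1d was separated between these groups, where 7.27% of all genes were higher without overlap.

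**Figure D3:**
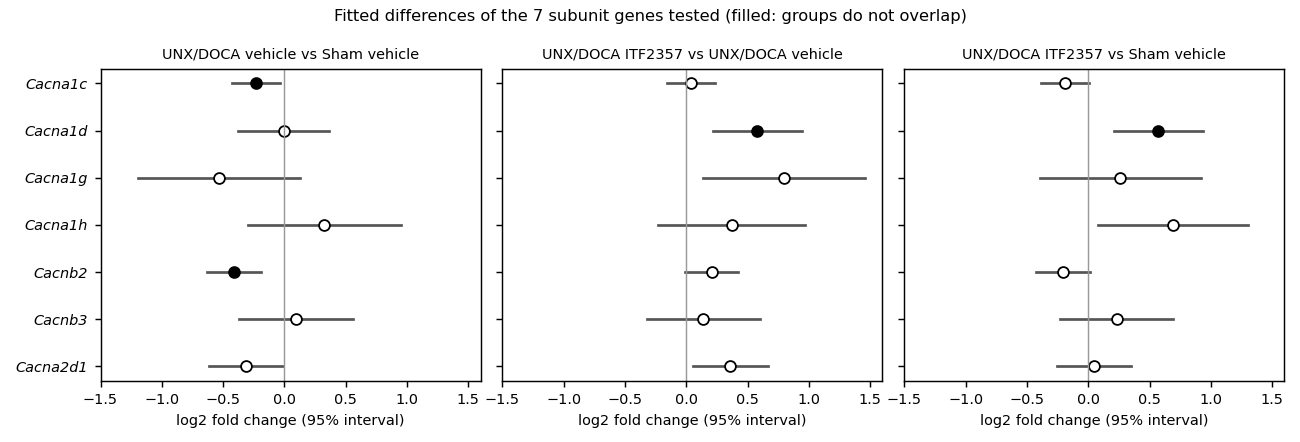
Points are fitted log2 fold changes with 95% intervals for the 7 tested genes in the 3 comparisons, the group named first over the second, filled where the 4 libraries of each group do not overlap. Cacna1c (-0.23) and Cacnb2 (-0.41) are filled in the first panel and Cacna1d (0.58 and 0.57) in the others, and 0 of these differences passed edgeR's adjusted threshold in this fit, while Cacnb2 in the first panel and Cacna1d in the third passed under other settings.

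Ratios between subunits within a library do not depend on library size. Cacnb2 stood at 38.4 ± 8.34 RPKM per 100 RPKM of Cacna1c in UNX/DOCA ITF2357, 33.9 ± 5.77 in UNX/DOCA vehicle libraries and 38.0 ± 3.03 in Sham vehicle libraries (SD, n = 4 each), so pore and beta subunit kept overlapping proportions. Cacna2d1 per 100 of Cacna1c was 132 ± 14.2 in UNX/DOCA ITF2357, 106 ± 29.0 in UNX/DOCA vehicle libraries and 112 ± 10.1 in Sham vehicle libraries, again overlapping. Cacna1d per 100 of Cacna1c ran from 1.02 to 1.30 in UNX/DOCA ITF2357, from 0.714 to 0.860 in UNX/DOCA vehicle and from 0.633 to 0.683 in Sham vehicle libraries. Of the 6 ratios computed, this was the one in which the 3 groups did not overlap at all. The gap between UNX/DOCA vehicle and Sham vehicle was narrow, 0.714 against 0.683. These groups had 28 to 40 reads of Cacna1d per library, where counting error alone is 17.3% of the mean. The observed coefficient of variation of Cacna1d was lower, 13.6% for UNX/DOCA vehicle against 4.74% for Sham vehicle. Cacna1d itself overlapped between these 2 groups, while Cacna1c did not. This ratio was computed after the level of each gene was known and was not tested.

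Among the other ratios, Cacna1g per 100 of Cacna1c was 15.6 to 43.6 in UNX/DOCA ITF2357, 13.6 to 19.6 in UNX/DOCA vehicle and 16.1 to 25.1 in Sham vehicle libraries. Cacnb3 per 100 of Cacnb2 was 13.3 to 29.0 in UNX/DOCA ITF2357, 18.4 to 25.2 in UNX/DOCA vehicle and 10.5 to 18.3 in Sham vehicle libraries. Every UNX/DOCA vehicle library was thus above every Sham vehicle library in this ratio, by a narrow margin. Cacnb3 itself overlapped between these groups, while Cacnb2 was lower in UNX/DOCA vehicle without overlap. The ratio was not tested. Cacna1h per 100 of Cacna1g was 0.991 to 7.0 in UNX/DOCA ITF2357, 2.91 to 5.74 in UNX/DOCA vehicle and 1.67 to 3.57 in Sham vehicle libraries.

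**Figure D4:**
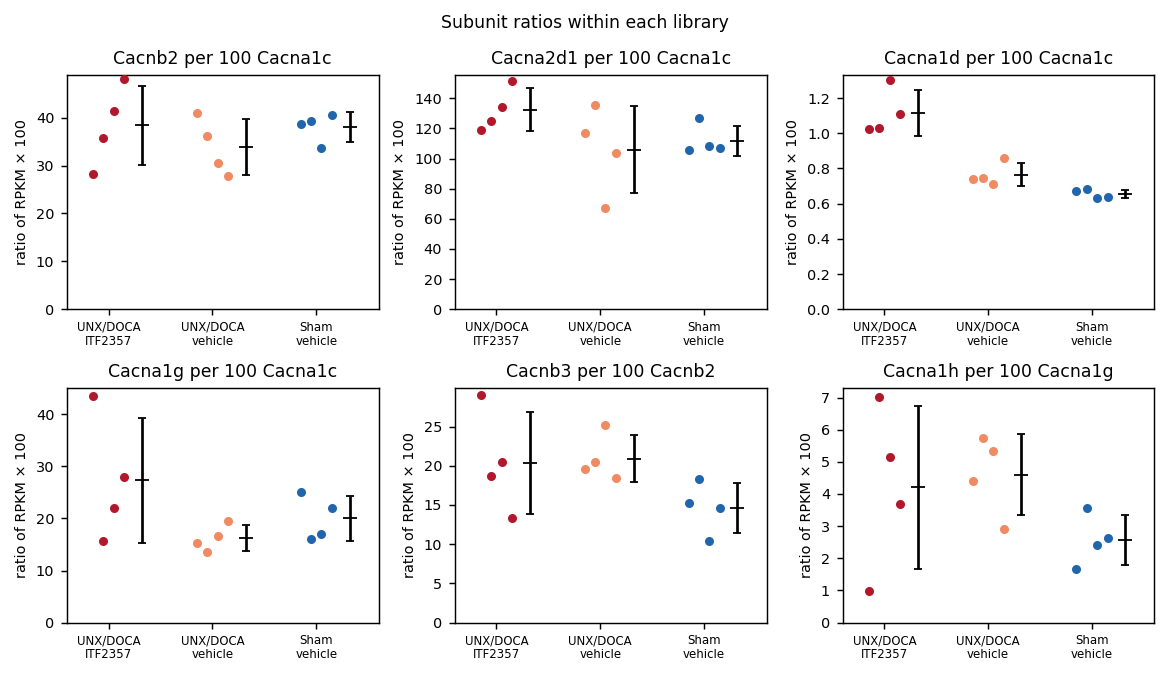
Each panel gives 1 ratio of RPKM values times 100, a point per library with the mean and SD of 4 beside them. Cacna1d per 100 Cacna1c is the panel in which the groups are stacked without overlap, from 0.633 at the lowest Sham vehicle library to 1.30 at the highest UNX/DOCA ITF2357 library.

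The channel family has 18 further genes, of which 7 had enough reads to test, and with 22 regulators they made 7 lists of 40 genes, 28 of them tested. None of the 28 passed in any of the 3 comparisons. At an unadjusted edgeR p under 0.05 there were 6 of 28 between UNX/DOCA vehicle and Sham vehicle, 5 between UNX/DOCA ITF2357 and UNX/DOCA vehicle and 5 between UNX/DOCA ITF2357 and Sham vehicle, where 15.9%, 18.5% and 20.1% of all genes were. The median log2 fold changes of the 28 were -0.07, 0.09 and -0.03 in that order. The gene with the smallest p in each list, and also Cacna2d2, is given next, without a call.

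Of the other pore genes 2 of 6 were tested, and Cacna1a, the P/Q-type pore of nerve terminals, averaged 2.79 ± 0.529 CPM in UNX/DOCA ITF2357, 3.30 ± 1.12 in UNX/DOCA vehicle libraries and 3.58 ± 0.180 in Sham vehicle libraries (UNX/DOCA ITF2357 against Sham vehicle -0.36, edgeR adjusted p = 0.405). Both other beta subunits were tested. Cacnb1, the beta subunit of skeletal muscle, averaged 10.3 ± 2.29 CPM in UNX/DOCA ITF2357, 10.5 ± 0.704 in UNX/DOCA vehicle libraries and 8.84 ± 0.463 in Sham vehicle libraries (UNX/DOCA vehicle against Sham vehicle 0.25 ± 0.14, edgeR adjusted p = 0.395).

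Cacna2d3, 1 of 2 alpha2delta genes tested of 3, was also higher in all 4 UNX/DOCA ITF2357 libraries than in the 8 others. Over all genes tested 2.35% were so placed, and Cacna2d3 had only 19 to 56 reads per library. It averaged 1.78 ± 0.279 CPM (1.55 to 2.15) in UNX/DOCA ITF2357, 1.00 ± 0.267 (0.675 to 1.33) in UNX/DOCA vehicle libraries and 0.961 ± 0.148 (0.761 to 1.11) in Sham vehicle libraries. It was higher in UNX/DOCA ITF2357 by 0.82 ± 0.22 than UNX/DOCA vehicle (edgeR adjusted p = 0.0892) and by 0.88 ± 0.22 than Sham vehicle (edgeR adjusted p = 0.0599). Cacna2d2, the other one tested and also a nodal marker used above, had 13 to 44 reads per library. It was lower in UNX/DOCA vehicle than in Sham vehicle without overlap (-0.79 ± 0.23, edgeR adjusted p = 0.150), where 4.36% of all genes were so separated. UNX/DOCA ITF2357 lay 0.47 above UNX/DOCA vehicle and differed from Sham vehicle by -0.32. Cacng7, the only gamma gene tested of 7, averaged 3.29 ± 0.833 CPM in UNX/DOCA ITF2357, 2.13 ± 0.429 in UNX/DOCA vehicle libraries and 2.41 ± 0.377 in Sham vehicle libraries (UNX/DOCA ITF2357 against UNX/DOCA vehicle 0.63 ± 0.22, edgeR adjusted p = 0.155).

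RGK GTPases bind the beta subunit and inhibit the channel, and Rrad (Rad) is the one through which beta-adrenergic signalling raises L-type current. Of the 4 listed, 3 were tested. Rrad ran from 38.1 to 46.4 CPM in UNX/DOCA ITF2357, from 52.7 to 144 in UNX/DOCA vehicle and from 25.2 to 129 in Sham vehicle libraries. The UNX/DOCA ITF2357 libraries lay within the wide Sham vehicle range. Their log2 fold changes were -1.17 ± 0.42 against UNX/DOCA vehicle (edgeR adjusted p = 0.172) and -1.01 against Sham vehicle (edgeR adjusted p = 0.211). UNX/DOCA vehicle differed from Sham vehicle by 0.17 (edgeR adjusted p = 0.875).

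All 7 anchors and dyad proteins were tested. Akap5, which tethers protein kinase A and calcineurin to the channel, averaged 1.64 ± 0.505 CPM (1.21 to 2.37) in UNX/DOCA ITF2357, 1.04 ± 0.305 (0.755 to 1.45) in UNX/DOCA vehicle libraries and 2.76 ± 0.730 (2.08 to 3.57) in Sham vehicle libraries. UNX/DOCA vehicle did not overlap Sham vehicle, where 4.36% of all genes were separated in that direction. Akap5 had only 21 to 114 reads per library. Its log2 fold change of -1.41 ± 0.28 between these groups was the largest of the 28 genes in size, with an edgeR adjusted p of 0.0954. UNX/DOCA ITF2357 was higher than UNX/DOCA vehicle by 0.65 (edgeR adjusted p = 0.237) and differed from Sham vehicle by -0.76 ± 0.27 (edgeR adjusted p = 0.140). Of the kinases, calmodulin and receptor genes 11 of 11 were tested, and Calm2, 1 of the genes for calmodulin, which inactivates the channel as calcium enters, averaged 95.1 ± 13.1 CPM in UNX/DOCA ITF2357, 92.8 ± 11.5 in UNX/DOCA vehicle libraries and 75.7 ± 2.95 in Sham vehicle libraries (UNX/DOCA ITF2357 against Sham vehicle 0.33 ± 0.10, edgeR adjusted p = 0.112).

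**Figure D5:**
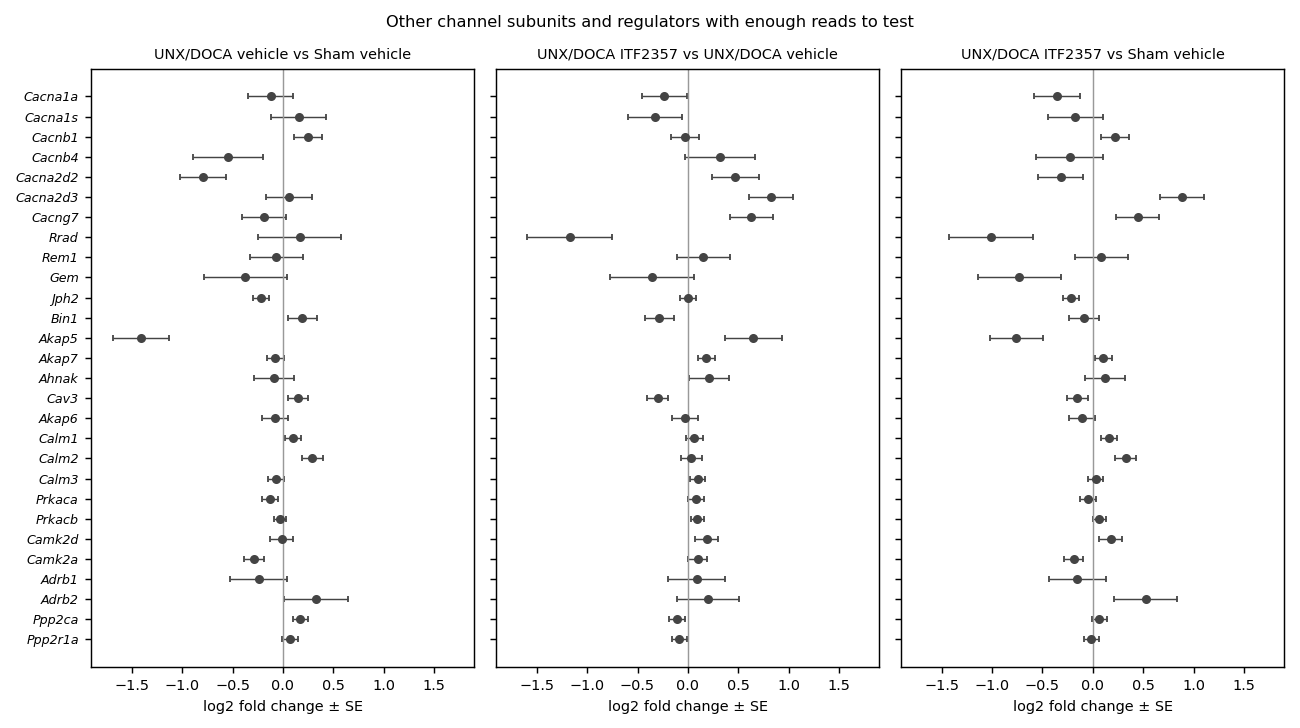
Points are fitted log2 fold changes with SE for the 28 tested genes of the family and its regulators beyond the 8 members, in 3 comparisons. Akap5 lies farthest left between UNX/DOCA vehicle and Sham vehicle (-1.41), Rrad farthest left (-1.17) and Cacna2d3 farthest right (0.82) between UNX/DOCA ITF2357 and UNX/DOCA vehicle, and 0 of the 28 passed.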

How the data were processed

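Left ventricular poly(A) RNA of 12 mice was sequenced, 4 per group, with groups taken from the sample titles. The titles name ITF2357 for all 4 drug libraries, while the treatment field of the labels carries a different number after ITF in 3 of them. The tools named are FastQC 0.11.9 for read quality and the aligner STAR 2.7.10b, with the mm39 build, per the submitters' processing notes. The authors deposited a table of raw counts for Ensembl genes, not normalized. No counting tool or strand setting was given in the sources used here, so a gene and an antisense partner cannot be told apart. Symbols, chromosomes and exon lengths came from the GENCODE M21 annotation of GRCm38 by Ensembl identifier, so RPKM depends on exon models of another build.

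Tests used edgeR 4.0.16 under R 4.3.3 (filterByExpr with a minimum count of 10, TMM scaling, a robust quasi-likelihood fit to the 12 libraries with 1 coefficient for each group, 9 residual degrees of freedom). Adjustment was by Benjamini-Hochberg over 16981 genes per comparison with a threshold of 0.05. Each standard error is the size of the log2 fold change over the square root of F. Fits with DESeq2 1.42.0, limma 3.58.1 (voom), other scalings and filters, and with libraries left out were alternatives. Marker levels are summed CPM, and log2 CPM used a prior count of 2.

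The members and lists were chosen with earlier results of these data known. The text names the 8 members, of each list the genes that passed or else the gene with the smallest p, and the 3 genes most like Cacna1c. Cacna2d2 is named besides these. The variance between 2 replicates of a group was 11.0 to 58.0 times the variance of counting error (chi-square per degree of freedom), and each library was counted as 1 sample. Replicate numbers do not pair animals, and 12 of 12 columns of the table were mapped to samples. The labels call the replicates biological.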

Additional observations from a re-analysis of the deposited data

Results flagged for a closer look

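Over the 21 combinations of a tested subunit gene and a group, 2 had a library far from the other 3, where chance gives about 1 in 20. In Sham vehicle, Cacna1c was 274.9 CPM in replicate 2, against 314.7 to 315.4 CPM in the other libraries of that group. That library sets the lower edge of the Sham vehicle range, and it still lay above every UNX/DOCA vehicle library. In Sham vehicle, Cacnb3 was 2.10 CPM in replicate 3, against 3.5 to 3.74 CPM in the others.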

How the results depend on the processing

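The count of subunit genes that passed was 0 in each comparison under edgeR's main settings, and it was 1 between UNX/DOCA vehicle and Sham vehicle (Cacnb2, lower) with no filter, DESeq2 and limma-voom, and 1 between UNX/DOCA ITF2357 and Sham vehicle (Cacna1d, higher) with limma-voom. It was 0 to 0 with each library left out in turn. Over all genes, UNX/DOCA vehicle against Sham vehicle gave 0 calls, but 210 with no filter, 561 with DESeq2, 521 with limma-voom, 1 without UNX/DOCA vehicle 3 and 4, and 0 to 380 with 1 library left out (380 without UNX/DOCA vehicle replicate 1, 39 without UNX/DOCA ITF2357 replicate 1). UNX/DOCA ITF2357 against UNX/DOCA vehicle gave 153, but 352 with no filter, 928 with DESeq2, 251 with limma-voom, 5 with only these 2 groups, 12 without UNX/DOCA vehicle 3 and 4, and 14 to 243 with 1 library left out. UNX/DOCA ITF2357 against Sham vehicle gave 298 (155 higher, 143 lower), but 1168 with DESeq2, 1506 with limma-voom, 475 with only these 2 groups, 481 without UNX/DOCA vehicle 3 and 4, and 17 to 616 with 1 library left out. On library totals it was 172 higher and 98 lower, and with no filter 161 higher and 249 lower. The causes were not tested. Of 189 single-gene values of the members under these settings 3 changed sign, all between UNX/DOCA vehicle and Sham vehicle: Cacna1d at 0.014 on library totals and 0.068 with limma-voom, and Cacnb3 at -0.082 with limma-voom. With 1 library left out, Cacna1d ran from -0.10 to 0.058 and Cacnb3 from -0.074 to 0.19 in that comparison, Cacna1c from -0.017 to 0.12 between UNX/DOCA ITF2357 and UNX/DOCA vehicle, and Cacna1g from -0.16 to 0.44 between UNX/DOCA ITF2357 and Sham vehicle.

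With the replicate number as a block, the calls over all genes were 31 between UNX/DOCA vehicle and Sham vehicle, 68 between UNX/DOCA ITF2357 and UNX/DOCA vehicle and 192 between UNX/DOCA ITF2357 and Sham vehicle, and 0 members passed. The numbers were not taken to pair animals: over 12 same-numbered pairs of libraries the correlation of deviations from the group means was -0.19 to 0.25, and a library was closest to its own number in 6 of 24 choices.

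Depth limits Cacna1d, Cacna1h and Cacng6 most, with at most 62, 47 and 5 reads per library.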
